A study of Homo sapiens with 14 samples.

Results

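The 10 genes described here belong to the cornified cell envelope and to the S100 alarmin group: SPRR1A, SPRR1B, SPRR2A, SPRR2D, SPRR3, IVL, S100A7, S100A8, S100A9 and PI3. They were chosen by name, as the rows of each library whose gene symbol is one of these, and all 10 were found among 35107 symbols, of which 14247 were above 1 FPKM (fragments per kilobase of transcript, scaled to the mapped fragments of the library) in at least 1 library. Values are from RNA-seq libraries of HCC70, a triple-negative breast cancer cell line, and C4-2B, a prostate cancer cell line derived from LNCaP, both labelled WT and grown in RPMI-1640 with 10% fetal bovine serum. HCC70 cells had been treated with vehicle, 5 µM ursolic acid (UA) or 10 µM UA for 24 or 48 h, which gives 6 libraries. C4-2B cells had been treated in 1 series with vehicle or 10 µM UA and in another with vehicle or 100 nM digoxin, each for 24 or 48 h, which gives 8 libraries. UA is a plant triterpenoid and digoxin a cardiac glycoside, and the study examined both as antagonists of the nuclear receptor RORγ in these lines. Every condition has 1 library, so no replicate error and no test can be given, and a difference is described as higher or lower past 2-fold on the scale of log2(FPKM + 0.1) when the gene was above 1 FPKM in either library. Each line is a single established culture, so the values say nothing of other lines.

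The cornified envelope is the sheet of cross-linked protein that replaces the plasma membrane of keratinocytes as they reach the skin surface. Involucrin (IVL) is laid down early as a scaffold, and small proline-rich proteins (the SPRR genes) are joined to it as cross-bridges by transglutaminases. S100A7 (psoriasin) and the S100A8 and S100A9 pair, which together form calprotectin, are calcium-binding antimicrobial proteins that act as alarmins when they leave the cell, and PI3 encodes elafin, an inhibitor of neutrophil elastase and proteinase 3 that can itself be cross-linked into the envelope. In skin these genes are known for high expression in wounds and in psoriasis. S100A8 and S100A9 are also abundant in neutrophils and monocytes.

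All of them but PI3 lie within the epidermal differentiation complex and the adjoining S100 cluster on chromosome 1 (hg38), from IVL at chr1:152908546-152911886 on the plus strand to S100A7 at chr1:153457744-153460651 on the minus strand. PI3 is at chr20:45174902-45176544 on the plus strand. Promoters from RefSeq (GRCh38.p14) were matched for 8 of the 10 genes. PI3 and SPRR2D were not matched. The 6 shown here were picked because they set SPRR genes with large differences in HCC70 cells beside S100A7, with a smaller one, and IVL and S100A9, which stayed within 2-fold. Each is the 200 bases before the start of transcription, read 5′ to 3′ on the strand of the gene, and capitals mark the letters TGANTCA, the site of AP-1, a dimer of Fos and Jun proteins. The windows are chr1:152983881-152984080 (+) for SPRR1A, chr1:153031003-153031202 (+) for SPRR1B, chr1:153057513-153057712 (-) for SPRR2A, chr1:152908346-152908545 (+) for IVL, chr1:153460652-153460851 (-) for S100A7 and chr1:153357654-153357853 (+) for S100A9.
SPRR1A: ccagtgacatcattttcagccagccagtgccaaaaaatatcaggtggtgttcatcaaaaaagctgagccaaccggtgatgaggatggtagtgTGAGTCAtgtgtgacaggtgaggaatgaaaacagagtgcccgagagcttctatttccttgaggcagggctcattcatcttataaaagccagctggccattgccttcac
SPRR1B: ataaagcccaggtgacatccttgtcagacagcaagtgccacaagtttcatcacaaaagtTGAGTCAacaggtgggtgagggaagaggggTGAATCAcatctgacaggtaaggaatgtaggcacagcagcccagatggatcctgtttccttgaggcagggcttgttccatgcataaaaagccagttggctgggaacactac
SPRR2A: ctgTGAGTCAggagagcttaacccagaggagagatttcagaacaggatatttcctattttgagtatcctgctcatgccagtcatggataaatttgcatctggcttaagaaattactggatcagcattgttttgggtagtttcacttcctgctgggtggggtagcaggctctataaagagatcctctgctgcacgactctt
IVL: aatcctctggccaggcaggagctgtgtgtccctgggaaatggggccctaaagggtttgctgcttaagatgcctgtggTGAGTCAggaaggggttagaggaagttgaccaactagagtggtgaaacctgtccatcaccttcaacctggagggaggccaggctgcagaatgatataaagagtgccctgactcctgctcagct
S100A7: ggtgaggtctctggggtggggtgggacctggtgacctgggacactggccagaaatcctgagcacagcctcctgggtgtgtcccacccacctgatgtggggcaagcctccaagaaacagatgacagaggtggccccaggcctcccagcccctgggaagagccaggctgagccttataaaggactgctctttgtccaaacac
S100A9: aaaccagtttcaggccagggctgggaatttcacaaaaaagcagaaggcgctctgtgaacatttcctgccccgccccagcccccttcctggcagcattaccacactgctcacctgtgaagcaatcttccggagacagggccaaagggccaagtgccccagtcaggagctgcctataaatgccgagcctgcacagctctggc
TGANTCA, searched on both strands in 250 bases before the start, was present at −108 in SPRR1A, at −111 and −141 in SPRR1B, at −197 in SPRR2A, at −123 in IVL and at −170 in SPRR3, where positions are those of the first letter counted back from the start. These are 5 of the 8 genes with a promoter, and 6.6% of 27305 RefSeq promoters of the same length held the letters. S100A7, S100A8 and S100A9 had no match in this window. The S100A8 window, chr1:153391189-153391438 (-), does not adjoin the GENCODE start of the gene at 153391073. What it holds or lacks thus does not describe the bases next to that start. AGGTCA, the core of the element bound by ROR receptors, was in 2 of the 8 promoters, those of IVL and S100A7, and in 12.1% of all promoters. TATAAA began between −30 and −28 in 6 of the 8, those of SPRR1A, SPRR2A, SPRR3, IVL, S100A7 and S100A9, and in 11.1% of all promoters anywhere in the window. Other letters were searched as well. GAGGAAG, the letters used for ETS sites, was in SPRR3, IVL, S100A8 and S100A9 and in 11% of all promoters. Shorter letters for ETS sites were not searched. ATGCAAAT, the octamer, was in SPRR2A alone and in 1.66%. The letters used for C/EBP, NF-κB and interferon response (ISRE) sites had no match in the 8 promoters, beside 9.13%, 5.61% and 3.07% of all. A match is a description of the letters and not evidence of binding.

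Before the results, the libraries were checked against their labels. In the HCC70 libraries the 6 basal epithelial markers (KRT5, KRT6B, KRT14, KRT17, EGFR and SFN) were all above 1 FPKM, and of 7 prostate luminal markers only TMPRSS2 was. The C4-2B libraries had all 7 prostate markers above 1 FPKM. Of 9 neutrophil and monocyte markers, CD14 alone was above 1 FPKM in HCC70, at 93.7 to 156 FPKM, and none was in C4-2B. PTPRC, the leukocyte common antigen, was at or near 0 throughout (0 to 0.38 FPKM), and FCGR3B was listed at 0 in all 14 libraries. In 1 library, C4-2B with 10 µM UA for 48 h, all 6 basal markers were above 1 FPKM against 1 to 3 in the other C4-2B libraries. For this reason HCC70 is described first, and the C4-2B values are set beside other genes that are abundant in HCC70. The median log2 ratio of all genes tested in HCC70 moved by −0.20 at 10 µM and 48 h and by −0.11 between the vehicles of 48 and 24 h. In these bulk libraries fewer cells making a transcript and less transcript in each cell cannot be told apart.

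In untreated HCC70 cells the alarmin genes and PI3 were among the most abundant transcripts, the SPRR genes covered a wide range of lower levels, and IVL and SPRR3 were low. S100A9 had 12899 FPKM in the vehicle of 24 h and 13862 in that of 48 h, ranks 9 and 13 among all symbols. S100A7 had 12843 and 15609 FPKM (ranks 10 and 11), PI3 7815 and 6462 (rank 18 in both) and S100A8 4139 and 4885 (ranks 21 and 20). The 10 genes together made up 4.35% and 4.63% of the summed FPKM of these vehicle libraries, and 8.30% in cells with 10 µM UA for 48 h. The SPRR genes followed with 471 and 195 FPKM for SPRR2A, 192 and 34.7 for SPRR1B, 36.9 and 12.4 for SPRR2D, and 7.91 and 4.91 for SPRR1A. IVL had 6.23 and 2.49 FPKM, and SPRR3, a proline-rich protein of the oesophagus and other internal epithelia, was listed at 0 in both.

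The main response was at 10 µM UA and 48 h, where 4 SPRR genes, S100A7 and PI3 were higher than the vehicle and IVL, S100A8 and S100A9 were within 2-fold of it. Of the 9 genes tested 6 were higher past 2-fold and 0 lower, while 6.8% of all 11860 genes tested were higher and 13.3% lower. The median log2 ratio of the 9 genes was 1.49 and that of all genes tested −0.20. SPRR3 did not pass the filter on low values in any comparison.

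**Figure D1:**
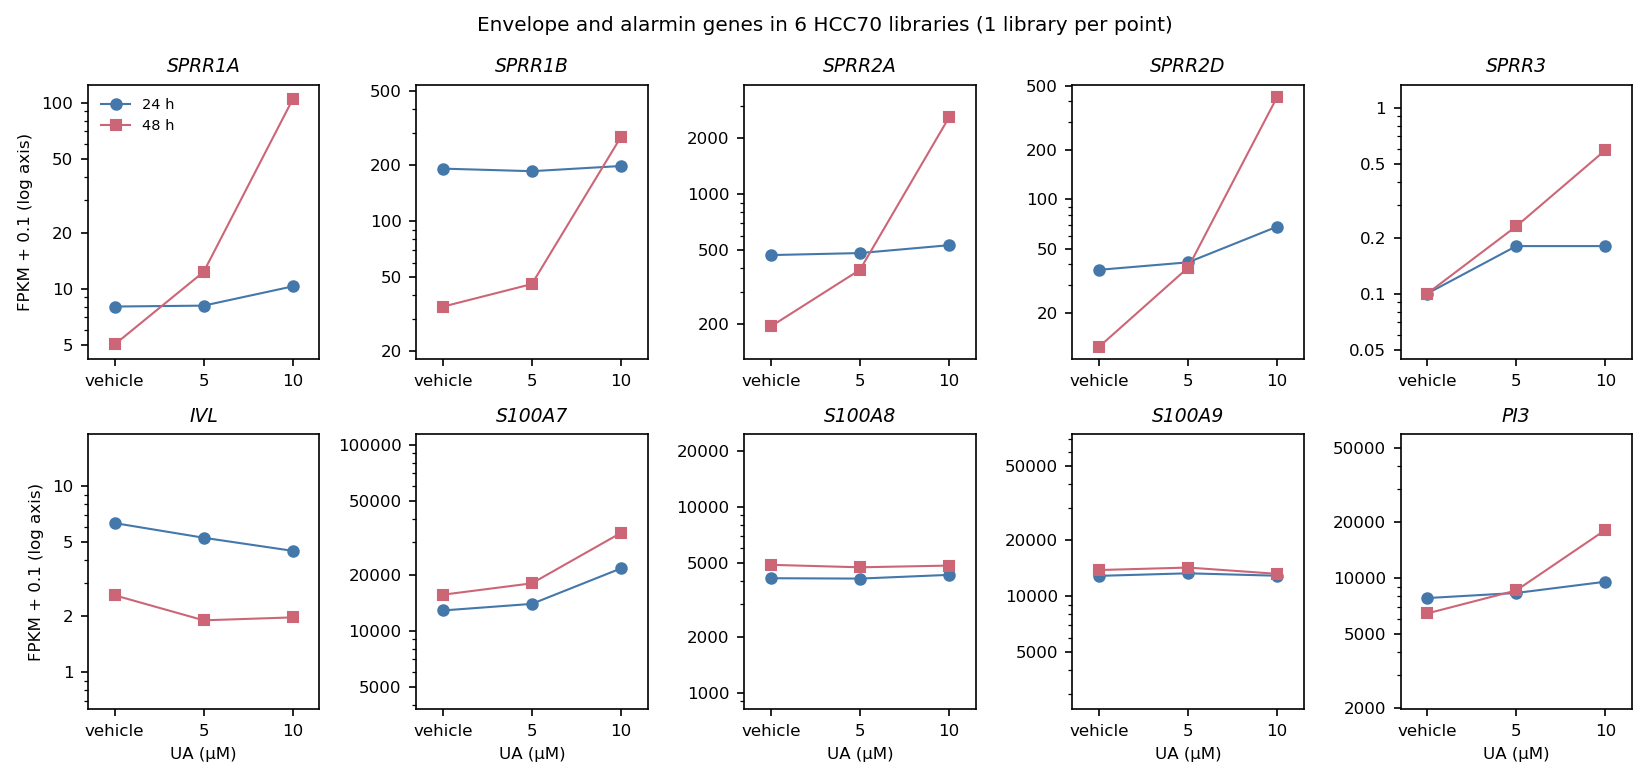
FPKM + 0.1 (log axis) of the 10 genes in the 6 HCC70 libraries, by UA dose (vehicle, 5 and 10 µM), with circles for 24 h and squares for 48 h, 1 library per point. The 4 expressed SPRR genes are highest with 10 µM UA at 48 h and lowest in the vehicle of 48 h, while S100A8 and S100A9 span only 1.19- and 1.11-fold over the 6 libraries.

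SPRR2D, one of the small proline-rich cross-bridging proteins, had the largest ratio of the 10 genes. Its levels at 24 h were 36.9 FPKM in vehicle, 41.1 at 5 µM and 68.0 at 10 µM, and at 48 h they were 12.4, 38.1 and 425 FPKM. The 48 h library with 10 µM UA stood far above the other 5, and the log2 ratio there was 5.09, 34.1-fold and rank 12 from the highest of all genes tested.

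SPRR1A had 7.91, 8 and 10.2 FPKM at 24 h with vehicle, 5 and 10 µM UA, and 4.91, 12.2 and 104 FPKM at 48 h. Its log2 ratio at 10 µM and 48 h was 4.38, or 20.8-fold, and the other 5 libraries lay between 4.91 and 12.2 FPKM.

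SPRR2A was the most abundant SPRR gene in all 6 libraries. It had 471, 483 and 532 FPKM at 24 h and 195, 393 and 2589 FPKM at 48 h, in the same order of doses, and its rank among all symbols went from 373 in the vehicle of 48 h to 29 with 10 µM UA. The log2 ratio at 10 µM and 48 h was 3.73, 13.3-fold.

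SPRR1B differed from these in that its 3 libraries of 24 h were already high. It had 192, 186 and 198.5 FPKM at 24 h and 34.7, 46.0 and 284 FPKM at 48 h. The log2 ratio at 10 µM and 48 h was 3.03, yet that library lay only 0.56 on the log2 scale above the vehicle of 24 h.

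SPRR3 was listed at 0 in both vehicles, at 0.08 FPKM with either dose at 24 h, and at 0.13 and 0.49 FPKM with 5 and 10 µM at 48 h. The highest of its values was thus in the same library as for the other SPRR genes, but no fold is given against a listing of 0. IVL, the early scaffold protein, was not higher with UA and stayed within 2-fold of the vehicle of its time. It had 6.23, 5.18 and 4.39 FPKM at 24 h and 2.49, 1.80 and 1.87 FPKM at 48 h. The log2 ratio at 10 µM and 48 h was −0.39, beside a median of −0.20 for all genes tested. All 3 libraries of 48 h lay below all 3 of 24 h, and each UA library lay below the vehicle of its time.

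Among the alarmins, S100A7 was separated from S100A8 and S100A9. S100A7 had 12843, 13934 and 21608 FPKM at 24 h and 15609, 17970 and 33528 FPKM at 48 h, so that the dose order was the same at both times, with a log2 ratio of 0.75 at 10 µM and 24 h and 1.10 at 10 µM and 48 h. S100A8 had 4139, 4121 and 4315 FPKM at 24 h and 4885, 4739 and 4840 FPKM at 48 h. S100A9 had 12899, 13314 and 12919 FPKM at 24 h and 13862, 14296 and 13227 FPKM at 48 h. The log2 ratios of the calprotectin pair at 10 µM and 48 h were −0.014 for S100A8 and −0.068 for S100A9. Within a library, S100A8 stood at 0.309 to 0.366 of the FPKM of S100A9, while S100A7 went from 0.996 of S100A9 in the vehicle of 24 h to 2.53 times S100A9 with 10 µM UA at 48 h.

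PI3, the elafin gene, had 7815, 8324 and 9567 FPKM at 24 h and 6462, 8590 and 18150 FPKM at 48 h. The log2 ratio at 10 µM and 48 h was 1.49, and the dose order was again the same at both times. Although PI3 lies on another chromosome, its profile over the 6 libraries was nearer to that of S100A7 than to that of any other of the 10 genes (root mean square difference of centred log2 profiles 0.21). The S100A8 and S100A9 pair was the closest of all (0.080), and SPRR2A and SPRR2D differed by 0.45.

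With 5 µM UA for 48 h the ratios were smaller: 3 of 9 genes lay above the vehicle past 2-fold and 0 below, beside 1.12% of all genes tested higher and 1.23% lower. They were SPRR2D (log2 ratio 1.61), SPRR1A (1.30) and SPRR2A (1.01, just past the threshold of 1). The next genes were PI3 at 0.41 and SPRR1B at 0.40, S100A7 was at 0.20, S100A8 at −0.044, S100A9 at 0.044 and IVL at −0.45. Between the doses at 48 h, 10 over 5 µM gave 5 genes higher and 0 lower of 9, against 4.75% and 9.1% of all genes. These were SPRR2D (3.48), SPRR1A (3.08), SPRR2A (2.72), SPRR1B (2.62) and PI3 (1.08), with S100A7 at 0.90.

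At 24 h none of the 9 genes was past 2-fold at either dose. At 5 µM the log2 ratios ran from −0.26 for IVL to 0.15 for SPRR2D, where 1.11% of all genes were higher and 0.635% lower. At 10 µM they ran from −0.50 for IVL to 0.88 for SPRR2D, with S100A7 next at 0.75, where 2.04% were higher and 1.73% lower. Here SPRR1A was at 0.36, PI3 at 0.29, SPRR2A at 0.18, and SPRR1B, S100A8 and S100A9 between 0.0023 and 0.060. At 10 µM the SPRR genes among these 9 stood in the same order at both times, from SPRR2D through SPRR1A and SPRR2A to SPRR1B. Other SPRR2 genes did not keep to one order. SPRR2E was at 0.37 at 24 h and 6.23 at 48 h, SPRR2F at −0.15 and 5.18, and SPRR2B at 1.84 and 3.93. SPRR2B passed the filter through the UA library alone. For 10 over 5 µM at 24 h none of the 9 was past 2-fold either, beside 1.7% of all genes higher and 2.05% lower.

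**Figure D2:**
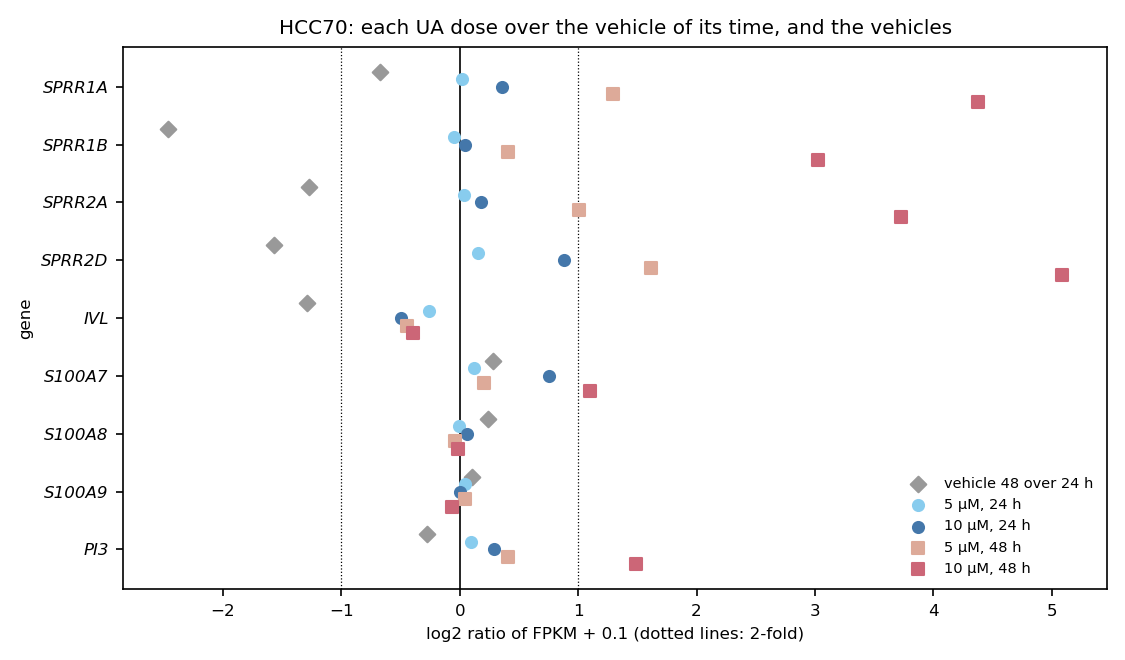
Log2 ratio of FPKM + 0.1 for 9 genes in HCC70 (SPRR3 is below the filter), each UA dose over the vehicle of its time and, as grey diamonds, vehicle of 48 h over vehicle of 24 h; 1 library on each side of a ratio. At 10 µM and 48 h the 4 SPRR genes lie at 3.03 to 5.09, and the vehicles alone differ by −2.47 for SPRR1B.

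The 2 HCC70 vehicles differed in these genes, and this bears on every ratio at 48 h. The vehicle of 48 h was lower than that of 24 h past 2-fold for 4 of 9 genes and higher for 0, beside 2.02% and 1.46% of all genes. These were SPRR1B (−2.47), SPRR2D (−1.57), IVL (−1.29) and SPRR2A (−1.27), with SPRR1A at −0.68, PI3 at −0.27, S100A7 at 0.28, S100A8 at 0.24 and S100A9 at 0.10. Time in culture and the difference between 2 single libraries cannot be told apart here. Set against the vehicle of 24 h, the library with 10 µM UA for 48 h was higher for 5 genes, SPRR1A (3.70), SPRR2D (3.52), SPRR2A (2.46), S100A7 (1.38) and PI3 (1.22), and lower for IVL (−1.68), beside 6.46% of all genes higher and 17.4% lower. SPRR1B was no longer past 2-fold. Set against the same vehicle, the library with 5 µM UA for 48 h was higher for 0 genes and lower for 2, SPRR1B (−2.06) and IVL (−1.74), beside 1.67% and 3.1% of all genes. SPRR2A then turned from 1.01 to −0.26, SPRR2D was at 0.045 and SPRR1A at 0.62. The differences at 5 µM and 48 h thus rest on the vehicle of 48 h. In turn, the 24 h libraries set against the vehicle of 48 h had 4 genes higher and 0 lower at 5 µM, beside 2.8% and 1.18% of all genes, and 4 higher and 0 lower at 10 µM, beside 3.35% and 2.75%. SPRR1B, SPRR2D and SPRR2A were among the 4 at both doses, with IVL (1.03) at 5 µM and SPRR1A (1.04) at 10 µM.

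The SPRR transcripts resemble each other, and reads may have been divided among them. Of all 50-base stretches in the GENCODE transcript of SPRR2A, 34.4% also occurred in transcripts of 6 other genes, and 33.8% of those of SPRR2D did. SPRR1A and SPRR1B shared 7.85% and 8.25% of theirs with each other, and S100A7 shared 17.6% with S100A7A. SPRR3, IVL, S100A8, S100A9 and PI3 shared none. How much of the value of a single SPRR2 gene belongs to its neighbours was not tested. Over SPRR1A, SPRR1B and 5 SPRR2 genes together, the family among which such reads would be divided, the summed FPKM was 790, 801 and 914 at 24 h and 263, 531 and 4621 at 48 h. SPRR2A made up 56.0 to 74.0% of this sum. SPRR2E, another cross-bridging protein of this family, went from 6.0% of it in the vehicle of 48 h to 25.8% with 10 µM UA.

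Other envelope proteins were mostly unexpressed or moved little outside the SPRR2 family. Of the 9 tested at 10 µM and 48 h, 3 were higher and 1 lower past 2-fold, with a median log2 ratio of 0.041. Beside this and each further list at this dose and time, 6.8% of all genes were higher and 13.3% lower. SPRR2E had 78.3, 80.3 and 101 FPKM at 24 h and 15.8, 38.5 and 1194 FPKM at 48 h, a log2 ratio of 6.23. SPRR2F had 0.46 FPKM in the vehicle of 48 h and 20.2 with 10 µM UA (5.18), and SPRR2B 0.15 and 3.71 (3.93). Sciellin (SCEL), an envelope precursor protein, was lower at −1.76, from 10.0 to 2.89 FPKM, and envoplakin (EVPL), which anchors the envelope at desmosomes, was at −0.65 and cornifelin (CNFN) at −0.40. LORICRIN, the main envelope protein of skin, was listed at 0 in all 6 HCC70 libraries and filaggrin (FLG) was at 0.03 FPKM or less. The 7 late cornified envelope genes listed (LCE1C, LCE1F, LCE2A, LCE3A, LCE3C, LCE3D and LCE3E) were all at 0.

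Of the enzymes that build or shed the envelope 8 were tested, with 3 higher, 2 lower and a median of 0.37, beside 6.8% of all genes higher and 13.3% lower. Lipoxygenase 3 (ALOXE3), which makes barrier lipids, was at 3.07, the tissue transglutaminase TGM2 at 1.25 and the lipid transporter ABCA12 at 1.08. Transglutaminase 5 (TGM5) was at −1.69 and the corneodesmosome protease KLK7 at −1.22, with KLK8 at −0.61. TGM1, the keratinocyte transglutaminase that cross-links SPRR proteins, was low, at 0.42 FPKM in the vehicle of 48 h and 0.51 with 10 µM UA, and was not tested.

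Of 12 further S100 genes tested, 2 were higher and 0 lower, with a median of 0.16, beside 6.8% of all genes higher and 13.3% lower. S100A7A, the near copy of S100A7, had 57.5 FPKM in the vehicle of 48 h and 167 with 10 µM UA (1.54), and S100P had 184 and 514 (1.48). S100A6 was at 0.82, S100A4 at −0.68, S100A13 at −0.49 and S100A2 at −0.45. Antiproteases and antimicrobial proteins had 6 of 13 higher and 2 lower, with a median of 0.94. WFDC12 (2.24) and WFDC3 (2.03) belong with PI3 to the whey acidic protein family on chromosome 20. The siderophore-binding protein lipocalin 2 (LCN2) went from 11088 to 38166 FPKM (1.78), above S100A7 in that library. Beta-defensin 1 (DEFB1) was at −1.48 and SERPINB2, an inhibitor of urokinase, at −1.29, and SERPINB3 was at 0.14. Of the receptors of S100 proteins and the targets of elafin, 2 were tested and neither was past 2-fold, basigin (BSG) at 0.70 and AGER at 0.18. TLR4, a receptor of calprotectin, and ELANE and PRTN3, the proteases elafin inhibits, were listed at 0 in all 6 HCC70 libraries.

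Among transcription factors known to act on envelope genes, 6 of 20 were higher and 1 lower, with a median of 0.65, beside 6.8% of all genes higher and 13.3% lower. The Fos-family subunit FOSL1 had 18.6, 21.1 and 34.3 FPKM at 24 h and 7.89, 22.1 and 83.2 FPKM at 48 h, a log2 ratio of 3.38 at 10 µM and 48 h. As for SPRR1A, its lowest library was the vehicle of 48 h and its highest 10 µM UA at 48 h. PRDM1 was at 2.11 and NFKBIZ, a nuclear IκB protein induced by interleukins, at 1.89. ZNF750, which promotes terminal differentiation of keratinocytes, was lower at −1.13, GRHL2 was at −0.49 and TP63 at −0.45. Of 10 cytokines known to induce envelope and alarmin genes, 7 were tested and 6 were higher, with a median of 4.74. IL36G had 0.07 FPKM in the vehicle of 48 h and 20.1 with 10 µM UA (6.89), IL1A 1.31 and 78.2 (5.79), and IL17C was listed at 0 in the vehicle and had 4.32 FPKM with UA. IL1B was at 3.90, TNF at 3.55 and IL6 at 0.12. At 10 µM and 24 h, 5 of 6 cytokines tested were past 2-fold higher (median 1.57), beside 2.04% of all genes higher and 1.73% lower. There IL36G (0.22 and 2.43 FPKM) passed the filter through the UA library alone. Whether any of the cytokines acted on the envelope and alarmin genes here was not tested. Keratins were lower in 5 of 8 and higher in 0, with a median of −1.27: KRT4 at −6.72, KRT14 at −2.78 and KRT6A at −2.51, with KRT17 at 0.37, KRT6B at 0.054 and KRT10 at −0.38. KRT6A and KRT6B are near copies, so the split of reads between them is uncertain. SPRR2B, SPRR2F, ALOXE3, AGER, IL36G and IL17C passed the filter through the UA library alone and KRT4 and ZNF750 through the vehicle alone, which favours the direction they show. These lists were compared by their counts and medians only, and no test of one list against another was made.

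**Figure D3:**
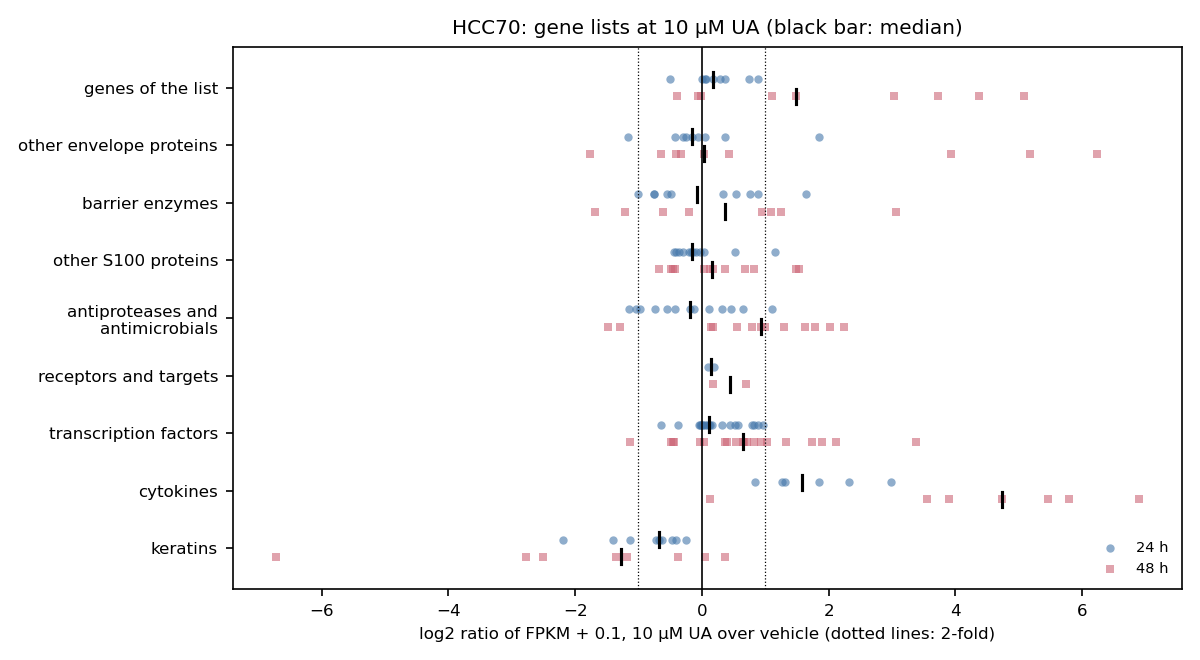
Log2 ratio of FPKM + 0.1, 10 µM UA over vehicle in HCC70, for the genes above 1 FPKM of the 10-gene list and 8 further lists; circles are 24 h, squares 48 h, each point is a gene and the black bar is the median. At 48 h the medians run from −1.27 for keratins to 4.74 for cytokines, with 1.49 for the envelope and alarmin genes.

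The position of the genes on chromosome 1 was not used to choose them, so their neighbours were examined. From S100A10 to S100A1 the files hold 75 genes, of which 24 were tested at 10 µM and 48 h. Of these 10 were higher and 0 lower, with a median log2 ratio of 0.62, beside 6.8% of all genes higher and 13.3% lower. Without the envelope and alarmin genes named above, 16 were tested, of which 5 were higher and 0 lower, with a median of 0.46. They were SPRR2E, SPRR2F, SPRR2B, S100A7A and, named after its value was seen, the peptidoglycan-binding protein gene PGLYRP4, which had 7.36 FPKM in vehicle and 14.8 with UA (1.00). SPRR2B, SPRR2E, SPRR2F and S100A7A shared 32.4%, 25.4%, 18.4% and 1.58% of their 50-base stretches with other genes. Reads may thus have been divided between them and the envelope and alarmin genes. In the same region 5 of 23 genes were higher with 5 µM for 48 h, beside 1.12% of all genes, and 2 of 24 with 10 µM for 24 h, beside 2.04%. Without the envelope and alarmin genes these were 2 of 15, SPRR2E and SPRR2F, and 2 of 16. With 5 µM for 48 h SPRR2E (38.5 FPKM) and SPRR2F (2.77) were still below the vehicle of 24 h (78.3 and 3.06). The ratios of these genes at 5 µM thus rest on the vehicle of 48 h. Ratios above 3 were found within the SPRR1 and SPRR2 cluster alone in this region. Between S100A11 and IVL, where filaggrin and the late cornified envelope genes lie, 0 genes were above 1 FPKM in either library.

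**Figure D4:**
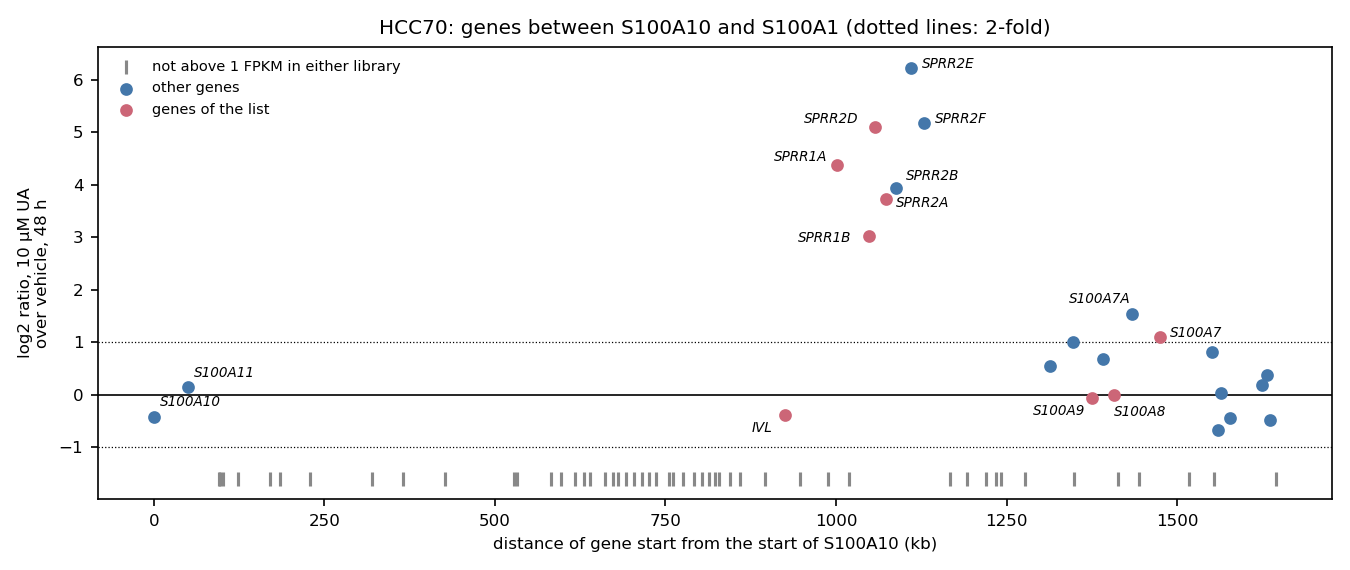
Log2 ratio, 10 µM UA over vehicle at 48 h in HCC70, of the genes between S100A10 and S100A1 against the distance of their start from that of S100A10 (kb); grey ticks are genes not above 1 FPKM in either library. The SPRR1 and SPRR2 genes stand at 3.03 to 6.23, S100A9 and S100A8 near 0, and S100A7A and S100A7 at 1.54 and 1.10.

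Over the 6 HCC70 libraries each gene was set beside 9019 genes above 5 FPKM in at least 1 of them, and the 3 nearest by the root mean square difference of centred log2 profiles were taken. SPRR1A was nearest to RHCG, an ammonia transporter (0.32), the peptide hormone gene ADM (0.41) and IL1B (0.44). SPRR2A was nearest to SLC26A9 (0.30), RHCG (0.32) and FOSL1 (0.33), and SPRR2D to LIF-AS2 (0.28), LIF (0.32) and SPRR2F (0.39). SPRR1B had no gene as close, with SDCBP2 (0.53), MMP13 (0.54) and COL16A1 (0.55). S100A7 was nearest to ATP2B1 (0.033), ZSWIM4 (0.051) and SLC22A18 (0.067), and PI3 to RBCK1 (0.044), ANXA1 (0.054) and PFKP (0.060). S100A8 was nearest to NUP58 (0.030), CDR2 (0.038) and LIMD2 (0.038), S100A9 was near to TUG1 (0.035) and KLHL5 (0.035), and IVL to H2BC4 (0.15), CDT1 (0.16) and ZNF600 (0.17). Genes that hardly vary are near to many others by this measure, so the small distances of S100A8 and S100A9 say little more than that they were flat.

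In C4-2B cells all 10 genes were low or listed at 0. In the UA-series vehicles of 24 and 48 h, PI3 had 5.19 and 5.39 FPKM, S100A9 4.15 and 4.20, S100A7 2.40 and 3.45, and S100A8 1.56 and 1.40, and no other of the genes exceeded 0.22. HCC70 was above C4-2B past 2-fold for 9 of 9 genes tested at both times, beside 20.3% of all genes at 24 h and 19.2% at 48 h. SPRR1A, SPRR1B, SPRR2A, SPRR2D and IVL passed the filter through HCC70 alone, which fixed their direction. The log2 ratio at 48 h was 12.1 for S100A7, 11.7 for S100A8, 11.7 for S100A9 and 10.2 for PI3. SPRR1B was listed at 0 in all 8 C4-2B libraries.

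With 10 µM UA for 48 h, C4-2B had 22.1 FPKM of S100A7, 21.6 of S100A9, 15.2 of PI3, 8.25 of S100A8 and 1.17 of SPRR2D, the highest of each among the 8 C4-2B libraries. The 5 genes tested were higher than the vehicle past 2-fold and 0 were lower, beside 1.75% and 1.03% of all genes. SPRR2D passed the filter through the UA library alone, so its direction was fixed by the filter. The log2 ratios were 2.64 for S100A7, 2.53 for SPRR2D, 2.48 for S100A8, 2.34 for S100A9 and 1.48 for PI3. At 24 h the same 4 alarmin and elafin genes lay below their vehicle. S100A8 went from 1.56 to 0.35 FPKM (−1.88, the 1 gene of 4 past 2-fold, beside 1.28% of all genes higher and 1.06% lower), S100A9 from 4.15 to 2.25 (−0.85), PI3 from 5.19 to 3.30 (−0.64) and S100A7 from 2.40 to 1.89 (−0.33). Here S100A8 passed the filter through the vehicle alone, so its direction was fixed by the filter. SPRR1A was listed at 0 in both vehicles and had 0.74 FPKM with UA at 24 h and 0.71 at 48 h. A like value was not limited to UA. In the digoxin series SPRR1A had 0.69 FPKM with digoxin at 24 h and was listed at 0 in the other libraries.

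These levels are small beside those of HCC70, and the 48 h library also held other transcripts that are abundant in HCC70. The 7 genes at 50 FPKM or more in every HCC70 library and at most 0.1 FPKM in the other 7 C4-2B libraries (B3GNT3, CASP14, CDA, IGFL2-AS1, SERPINB1, SLC34A2 and UCP2) had 0 to 0.427% of the level of the HCC70 vehicle of 48 h in it, with a median of 0.189%. B3GNT3 and UCP2 were listed at 0 in it. S100A7 had 0.142% of that level, S100A9 0.156%, S100A8 0.169% and PI3 0.235%, all within the range of the 7 genes. Against HCC70 with 10 µM UA for 48 h the 7 genes had a median of 0.0910% (0 to 0.206%), and the 4 genes had 0.0659% for S100A7, 0.0837% for PI3, 0.163% for S100A9 and 0.170% for S100A8. SPRR2D, SPRR1A and IVL lay above the range of the 7 genes, each from a value near the floor. SPRR2D (1.17 FPKM) had 9.44% of the HCC70 vehicle and 0.275% of HCC70 with 10 µM UA. SPRR1A (0.71 FPKM) had 14.5% and 0.682%, and IVL (0.20 FPKM) 8.03% and 10.7%. SPRR2A (0.33 FPKM) had 0.169% and 0.0127%, and SPRR1B and SPRR3 were listed at 0. In the same library KRT17, KRT5 and KRT6B had 3.89, 2.18 and 1.23 FPKM, and at most 0.34 in the other 7, while KRT14 (2.93 FPKM), EGFR (18.1) and SFN (1.66) were below the C4-2B vehicle of 48 h (4.66, 21.5 and 1.71). In the C4-2B vehicle of 48 h the 7 genes had a median of 0.0418% of HCC70 vehicle, where PI3 had 0.0834%, S100A9 0.0303%, S100A8 0.0287% and S100A7 0.0221%, though the ceiling of 0.1 FPKM used to choose the 7 genes limits their values there. At 24 h the medians were 0.0413% in vehicle and 0% with UA. Where these transcripts come from, and their part in the higher values of the 5 genes, was not tested.

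**Figure D5:**
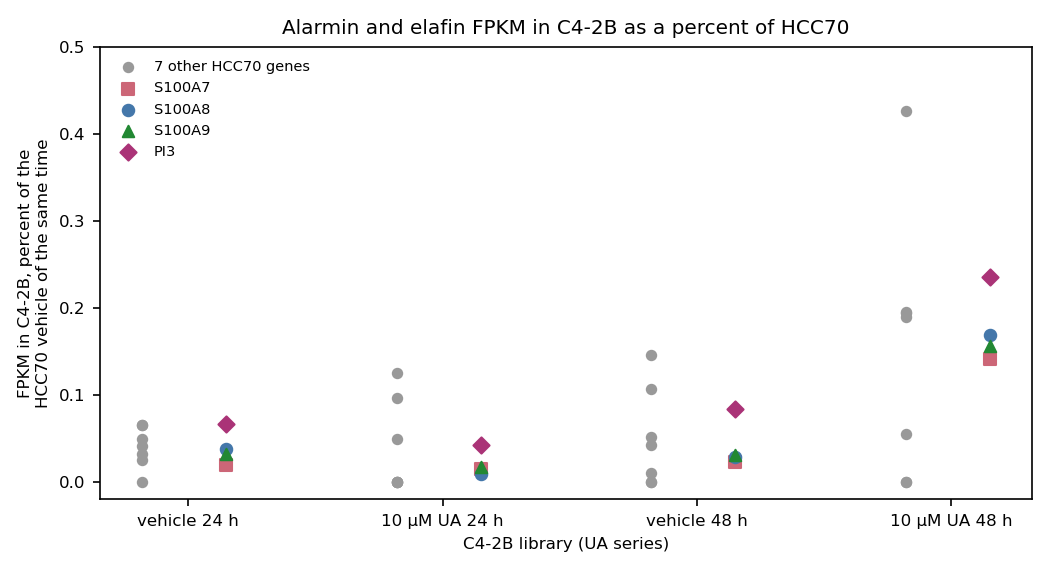
FPKM in the 4 C4-2B libraries of the UA series as a percent of the HCC70 vehicle of the same time; grey points are the 7 HCC70 genes chosen to be at most 0.1 FPKM in the other C4-2B libraries, coloured points S100A7, S100A8, S100A9 and PI3. With 10 µM UA at 48 h the 4 genes lie at 0.142 to 0.235%, inside the range of 0 to 0.427% of the 7 genes.

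In the digoxin series S100A7, S100A8, S100A9 and PI3 were lower still. S100A7, S100A8, SPRR1B, SPRR2A and SPRR2D were listed at 0 in all 4 libraries. S100A9 had 0.63 FPKM in vehicle and 0.47 with digoxin at 24 h, and 1.46 and 2.16 at 48 h (log2 ratio 0.53). PI3 was listed at 0 in both vehicles and had 0.78 FPKM with digoxin at 24 h and 1.55 at 48 h, for which no fold is given, and the filter fixed its direction at 48 h. At 24 h none of the 10 genes passed the filter. At 48 h 2 did, and PI3 counts as the 1 gene higher, beside 2.69% of all genes higher and 3.29% lower. The digoxin-series vehicles were below the UA-series vehicles past 2-fold for 4 genes at both times, S100A7, S100A8, S100A9 and PI3, beside 6.01% of all genes lower at 24 h and 5.86% at 48 h. S100A7, S100A8 and PI3 were listed at 0 in the digoxin-series vehicles, so their direction was fixed by the filter. At 24 h that of S100A9 was fixed too, as it passed through the UA-series vehicle alone (0.63 against 4.15 FPKM). Between the vehicles of the digoxin series 1 gene, S100A9, was higher at 48 h than at 24 h (1.10) and 0 were lower, beside 3.71% and 0.644% of all genes. S100A9 was the only gene tested there and passed through the 48 h library alone, so the filter fixed its direction. Between the vehicles of the UA series none of the 4 genes tested was past 2-fold, beside 1.48% of all genes higher and 0.952% lower. The 2 series differ in their vehicle libraries and in the gene table that was deposited, which cannot be told apart from any difference of UA and digoxin, so the treatments were not compared with each other.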

How the data were processed

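Single libraries of 14 conditions were used. According to the methods and processing notes, the authors used BWA and Bowtie for alignment against hg38 and Cufflinks for FPKM, and versions are not given in the sources used here. The deposited FPKM have 2 decimals. The UA-series tables name the unit and the digoxin-series tables do not, so FPKM was taken from the methods. Read totals are not given, so no counting interval is printed.

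Scripts ran in Python 3.11.15 with numpy 2.4.6, pandas 2.3.3 and matplotlib 3.10.9. FPKM of several entries with a common symbol were added up, a pseudocount of 0.1 FPKM was added, genes above 1 FPKM in either library were tested, and 2-fold was the threshold. No p-value was computed. Counting was tested on simulated data. Gene positions are from GENCODE v44 (hg38) and promoters from RefSeq. Alternatives were pseudocounts of 1 and 0.01, no filter or one at 5 FPKM, centring on the median or a trimmed mean (30% at each end), 1.5- and 3-fold, the highest entry of a symbol, and the vehicle of the other time or series.

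The genes and lists were chosen with earlier results of these data known. By rule all 10 genes were described, of each other list up to 3 genes with the highest and up to 3 with the lowest log2 ratio at 10 µM UA and 48 h in HCC70 among those tested, and the 3 nearest genes of each. Some genes that these rules select are not reported here and were left out of the marker list and the list of genes abundant in HCC70.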

Additional observations from a re-analysis of the deposited data

Results flagged for a closer look

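S100A8 in C4-2B cells went in opposite directions at the 2 times, at −1.88 on the log2 scale with 10 µM UA for 24 h (0.35 against 1.56 FPKM) and at 2.48 for 48 h (8.25 against 1.40 FPKM), and this difference was not tested. At 24 h S100A8 passed the filter through the vehicle alone, which fixed its direction there. In the library of 48 h S100A8 had 0.169% of the HCC70 vehicle level, beside a median of 0.189% for the 7 other genes chosen as abundant in HCC70.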

How the results depend on the processing

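No paired analysis was possible because each condition has 1 library. With the HCC70 vehicle of the other time, 4 genes were higher at 24 h with 5 µM UA and 4 with 10 µM, none with either dose when the vehicle of the same time is used. At 48 h that vehicle gave 0 higher and 2 lower at 5 µM, with SPRR2A reversed at −0.26, and 1 lower at 10 µM. At 1.5-fold 2 genes were higher at 10 µM and 24 h in HCC70, 2 for 10 over 5 µM at 24 h, and 3 were lower with UA at 24 h in C4-2B. At 3-fold 1 gene was higher at 5 µM and 48 h, 1 was lower between the HCC70 vehicles, and 0 were higher between the digoxin-series vehicles, as also with a pseudocount of 1 FPKM and with centring on the median. In C4-2B with UA at 24 h, 0 genes were lower with a pseudocount of 1, 0 with a filter at 5 FPKM, and 3 were higher without a filter. Without a filter 2 were also higher with digoxin at 24 h and 2 between the UA-series vehicles. The filter at 5 FPKM left 1 gene lower between the series at 24 h and 1 at 48 h. With the vehicle of the other series, C4-2B with UA at 24 h had 3 genes higher and 0 lower, digoxin had 4 lower at 24 h and 0 higher and 3 lower at 48 h, and PI3 at 48 h reversed to −1.73. The other 241 counts of genes higher or lower moved by at most 1.5 times. At that limit, 10 µM and 48 h in HCC70 gave 4 genes higher at 3-fold where 6 were at 2-fold, and the vehicles of the 2 series at 48 h gave 6 genes lower without a filter where 4 were with it. For single genes 743 values kept sign and side of the threshold, and 24 more within 2-fold changed sign, among them S100A8 and S100A9 at 10 µM and 48 h, which centring on the median moved to 0.19 and 0.14. A further 18 values past the threshold fell back within it, and 17 within it passed it with the same sign. Another 6 within it passed it with the opposite sign, and 2 past it changed sign, those of SPRR2A and PI3 given above. At 24 h digoxin gave no value for a gene above 1 FPKM, and at 48 h and between its vehicles the filter at 5 FPKM left none. Values near 0 FPKM in C4-2B rest on few fragments.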
